A study of Mus musculus with 3 samples.

Results

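The machinery examined here consists of the ligands, receptors, activating proteases and protease inhibitors of 2 related growth factor systems, MSP-RON and HGF-MET. Its 9 genes were taken by name. They were the ligands Mst1 and Hgf, the receptors Mst1r and Met, the activating proteases Hgfac, Hpn and St14, and the inhibitors Spint1 and Spint2. A probe was assigned to a gene through the RefSeq accession given for it on the array. This gave 15 probes of the 56605 probes on the array, and 9 of the 22908 genes with a symbol. Mst1, Mst1r and Hgfac had 1 probe each, and the other 6 genes had 2 probes each.

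The cells were Hepa1c1c7, a mouse hepatoma cell line that is widely used to study the aryl hydrocarbon receptor. They were transfected with an empty vector (pCMV6-Kan/Neo), a vector carrying an Mst1r coding sequence or a vector carrying an Slpi coding sequence, and RNA was taken a day later from cells kept in medium with serum. Slpi encodes a secreted inhibitor of serine proteases. Transfection was transient, so each RNA sample was a mixture of cells that had and had not taken up the vector, and fewer expressing cells cannot be told apart from less RNA per cell. Each group was 1 sample on 1 array, so no test between groups was possible and no difference below has a replicate check.

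MSP, the product of Mst1, and HGF are secreted as inactive single chains, and hepatocytes are a major source of MSP in the liver. A protease has to cut the chain before the ligand activates its receptor. HGF activator, encoded by Hgfac, circulates in plasma, whereas hepsin (Hpn) and matriptase (St14) are anchored in the cell membrane. The Kunitz-type inhibitors HAI-1 (Spint1) and HAI-2 (Spint2) block these proteases. RON, the product of Mst1r, binds MSP, and MET binds HGF. Both receptors are tyrosine kinases that recruit adaptors such as Grb2 and Gab1 and signal through the RAS-ERK and PI3K-AKT pathways. In the liver, HGF is made mainly by stellate and other mesenchymal cells and acts on hepatocytes through MET.

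The study that made these arrays was concerned with promoter DNA methylation in liver tumors, and CpG dinucleotides are where that methylation occurs. The bases before the transcript start are therefore shown for the 3 members richest in CpG dinucleotides, which differed in detection, and for Mst1r and its ligand gene Mst1. The RefSeq windows (GRCm38.p6) held a transcript start for 8 of the 9 members. Each sequence below is the 250 bases before a start, written along the strand of the gene, and the capitals mark CpG dinucleotides. The Met window lies at chr6:17463707-17463956 on the plus strand, the Spint2 window at chr7:29281978-29282227 on the minus strand and the Spint1 window at chr2:119237110-119237359 on the plus strand. Mst1r has 2 annotated starts, with windows at chr9:107906639-107906888 and chr9:107914753-107915002 on the plus strand, and the Mst1 window lies on the same chromosome at chr9:108080186-108080435 on the plus strand. The study counted regions on both sides of a start as promoter regions. The Mst1r region it reported lies after the first start and outside both Mst1r windows shown here.
Met: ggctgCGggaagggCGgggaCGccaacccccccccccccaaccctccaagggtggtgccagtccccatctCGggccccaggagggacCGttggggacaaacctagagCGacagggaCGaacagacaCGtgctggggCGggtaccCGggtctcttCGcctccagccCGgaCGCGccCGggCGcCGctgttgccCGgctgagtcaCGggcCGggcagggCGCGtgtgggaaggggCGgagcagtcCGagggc
Spint2: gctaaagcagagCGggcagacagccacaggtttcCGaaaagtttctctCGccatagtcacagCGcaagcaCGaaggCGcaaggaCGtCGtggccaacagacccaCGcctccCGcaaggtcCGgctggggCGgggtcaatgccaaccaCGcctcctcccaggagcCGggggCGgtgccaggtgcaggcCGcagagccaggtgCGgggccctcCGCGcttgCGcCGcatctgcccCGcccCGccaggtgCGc
Spint1: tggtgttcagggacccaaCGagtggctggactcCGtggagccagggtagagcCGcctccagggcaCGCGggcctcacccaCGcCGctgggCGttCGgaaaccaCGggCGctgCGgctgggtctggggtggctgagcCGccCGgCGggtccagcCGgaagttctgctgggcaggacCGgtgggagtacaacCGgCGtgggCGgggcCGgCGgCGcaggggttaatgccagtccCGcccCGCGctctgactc
Mst1r, first start: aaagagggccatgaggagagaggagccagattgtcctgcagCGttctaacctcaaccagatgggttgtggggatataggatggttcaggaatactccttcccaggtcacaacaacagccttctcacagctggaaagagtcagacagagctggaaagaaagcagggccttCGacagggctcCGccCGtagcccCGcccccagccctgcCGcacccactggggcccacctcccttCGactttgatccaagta
Mst1r, second start: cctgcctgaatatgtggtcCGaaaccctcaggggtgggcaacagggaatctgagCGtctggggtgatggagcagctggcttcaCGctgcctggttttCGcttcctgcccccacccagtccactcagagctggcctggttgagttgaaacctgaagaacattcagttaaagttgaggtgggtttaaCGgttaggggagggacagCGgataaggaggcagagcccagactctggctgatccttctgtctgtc
Mst1: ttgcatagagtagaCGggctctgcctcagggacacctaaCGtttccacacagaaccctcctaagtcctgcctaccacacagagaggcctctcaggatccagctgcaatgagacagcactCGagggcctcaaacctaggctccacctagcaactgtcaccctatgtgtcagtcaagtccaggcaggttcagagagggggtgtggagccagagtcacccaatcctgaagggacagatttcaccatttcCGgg

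The CpG content of these windows did not follow detection among the members. The Met and Spint2 windows each held 24 CpG dinucleotides, and both genes were detected on every array. The Spint1 window held 26, and Spint1 was detected on no array. The Mst1 window held 4 and the Hgfac window 1, and both genes were detected. The Mst1r windows held 7 and 6, and the Hgf windows, which belong to 2 starts, held 4 and 5. The Hpn windows held 7 and 1. Over the genes on the array that had such a window, detection was more frequent with more CpG dinucleotides. Of the 4284 genes with at least 21 in a window, 79.7% were detected on all 3 arrays, against 18.7% of the 3817 genes with at most 2. Spint1 was therefore among the minority of its CpG class, and Hgfac among the minority of the class with the fewest.

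**Figure D1:**
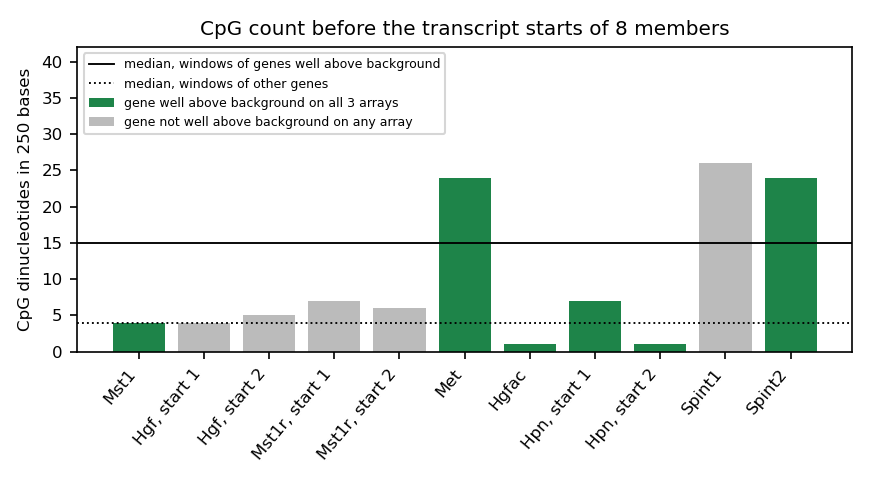
Number of CpG dinucleotides in the 250 bases before each annotated transcript start of 8 members (bars), with green for genes well above background on all 3 arrays and grey for genes well above background on none. The lines give the medians of 15 over windows of all genes well above background and of 4 over windows of the other genes on the array, and the Spint1 bar of 26 stands above the upper line although the gene was not detected.

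Matches on either strand are given for 2 of the short sequences searched in these windows, and a match is a description only. GGGCGG, the core of the motif bound by Sp1, was found in the Met, Spint1 and Spint2 windows, in the first Mst1r window and in the first Hpn window, and in 32.7% of all 32851 windows. TATAAA was found in no member window, and in 12.4% of all windows.

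Signals are given below as the processed signal, which is the spot intensity after background subtraction, in the order empty vector, Mst1r vector, Slpi vector. A probe counted as detected when it carried the deposited flag for a signal well above background. On the 3 arrays 48.5%, 46.7% and 48.1% of the probes were detected. The dimmest probe with this flag had a signal of 18.9, 18.8 and 16.6, respectively, and the 308 negative control spots had median signals of 4.12, 4.17 and 3.69. Spots of external RNA control probes that were dark, with a median signal under 15 on every array, gave stray signals over 50 mainly in the part of the array that begins at row 1. In these upper rows there were 25, 37 and 26 such spots of 922, and in the remaining lower rows there were 0, 2 and 1 of 1731. Of the member probes, those in rows 14, 41, 47 and 83 lie in the upper rows. The row of each member probe is therefore given with its signal.

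Of the 9 members, 5 were detected on all 3 arrays (Mst1, Met, Hgfac, Hpn and Spint2), and the other 4 (Mst1r, Hgf, St14 and Spint1) were detected on none. All 8 probes of the first 5 genes were detected on every array. All 7 probes of the other 4 genes lay between 3.27 and 10.1, below the lowest detected signals. The 95th percentiles of the negative control spots were 14.7, 12.8 and 7.70. On the Slpi vector array the brighter probes of St14 (9.65) and Spint1 (10.1) exceeded this percentile. The brightest negative control spots reached 94.1, 84.7 and 139, which is above the Hgfac signals. They also exceeded the dimmer Hpn probe (91.0, 63.9 and 85.9), and on the Slpi vector array the Mst1 probe (121). The brightest dark control spots in the upper rows, where the Mst1 probe lies, reached 207, 289 and 481. These exceed its signals of 104, 187 and 121. For comparison, 12469 of the 22908 genes (54.4%) had a probe detected on all 3 arrays. Of each ligand and receptor pair 1 partner was detected at the RNA level, the ligand for MSP-RON and the receptor for HGF-MET. An undetected probe does not show that the transcript was absent, and the level of 1 probe cannot be set against that of another.

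**Figure D2:**
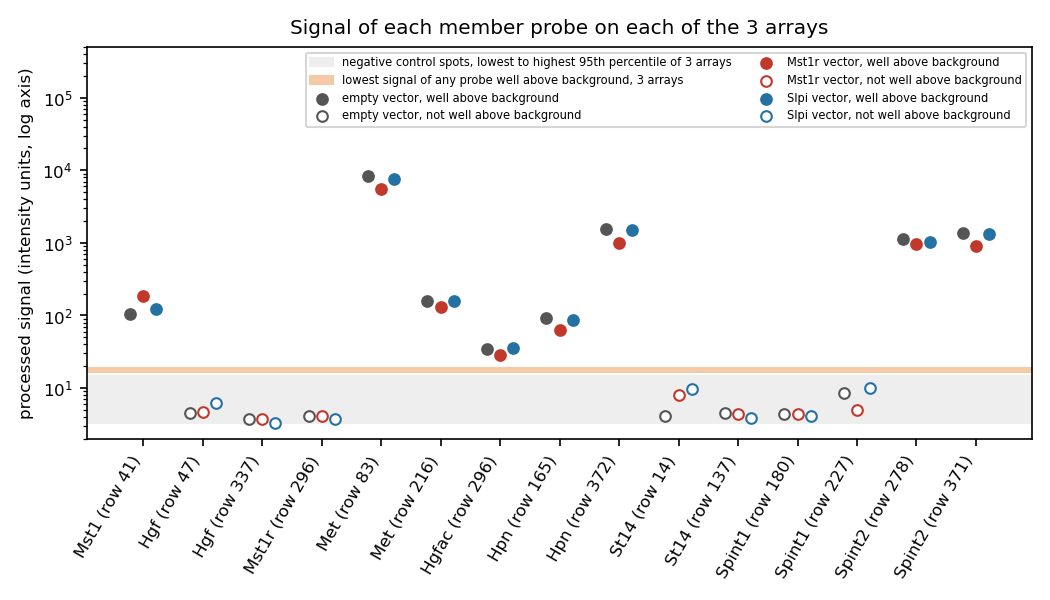
Processed signal (log axis) of the 15 member probes on the empty vector (grey), Mst1r vector (red) and Slpi vector (blue) arrays, 1 array each, with filled circles for signals well above background and open circles for the others. The open circles of Hgf, Mst1r, St14 and Spint1 lie between 3.27 and 10.1, within the grey band, and the 8 probes of the other 5 genes lie above the lowest detected signal. The band runs from the lowest negative control spot to the highest 95th percentile of these spots on any array (14.7).

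For the receptors, the Mst1r probe, read first as a check of the labels, gave signals of 4.15, 4.08 and 3.70 (row 296). These values lay close to the median of the negative controls on each array, and the array labelled Mst1r vector did not stand above the others. The probe carries the accession NM_009074, whereas the methods give NM_001287261 for the transfected clone, and 0 probes on the array carry that accession. Where the probe lies relative to the transfected sequence is not given in the sources used here, and whether it reads the transcript of the vector is not known. The 2 Slpi probes were not higher with the Slpi vector by 2-fold either, with signals of 6459, 3843 and 6680 (row 153) and 106, 91.7 and 85.8 (row 380). Whether the Slpi probes read the transcript of the vector is not known either. The labels of the arrays labelled Mst1r vector and Slpi vector were therefore not checked by these probes, and both names below refer to the labels. The paper itself reports overexpression of Mst1r in Hepa1c1c7 cells by real-time PCR.

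Met, the receptor for HGF, was detected by both of its probes. Its brighter probe gave 8407, 5485 and 7571 (row 83), and its other probe gave 157, 133 and 159 (row 216), both with the accession NM_008591. On the brighter probe the Mst1r vector array was the lowest of the 3. After scaling of each array to its 75th percentile, the log2 difference of Mst1r vector from empty vector was -0.39 ± 0.13, where the error here and below is the SD expected from repeated spots on an array and covers no variation between cultures. The second probe differed by -0.01 ± 0.27. The difference between the probes was -0.38 with a spot SD of 0.30, so the lower value was seen with 1 of the 2 probes. With Slpi vector the differences were -0.07 ± 0.13 and 0.10 ± 0.27, both within the spot error.

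The ligands were split. The Mst1 probe (NM_008243, row 41) gave signals of 104, 187 and 121, so MSP transcript was detected on every array and was highest with the Mst1r vector. The scaled difference between Mst1r and empty vector was 1.08 ± 0.27 (log2), or 2.11-fold, and without scaling the ratio of the signals was 1.80. With Slpi vector Mst1 was higher than with empty vector by 0.29 ± 0.27, close to the spot error. Between the Mst1r and Slpi vectors it differed by 0.78 ± 0.27. Hgf was not detected by either probe. The probe for NM_010427 (row 47) gave 4.54, 4.66 and 6.30, and the probe for NM_001289460 (row 337) gave 3.76, 3.74 and 3.27.

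The Mst1 difference was the only one among the members that reached 2-fold with a signal over 50 on the brighter array. Across all 22908 genes, 1.72% reached that limit as higher with Mst1r vector and 1.19% as lower. The value passed 2-fold narrowly. It was 0.97 (log2) after scaling to the 7 spike-in controls, 0.85 without scaling and 0.65 after another background correction (normexp), and the call was lost under each of these. The Mst1 probe also lay in the upper rows. Of the 2133 detected probes in the upper rows with a mean signal within 1 log2 unit of that of Mst1, the Mst1r vector array exceeded empty vector 2-fold for 102 (4.78%) and was 2-fold below it for 64. Of the 4039 such probes in the lower rows, 73 (1.81%) were higher and 15 (0.371%) lower by this limit. Values at or above that of Mst1 were reached by 88 (4.13%) and 61 (1.51%) of these probes, respectively. On the Mst1r vector array, 5 of the dark control spots in the upper rows had a signal over 150, against 1 on the empty vector array. The part of stray signal in the Mst1 value was not tested, since the gene has a single probe on a single spot.

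**Figure D3:**
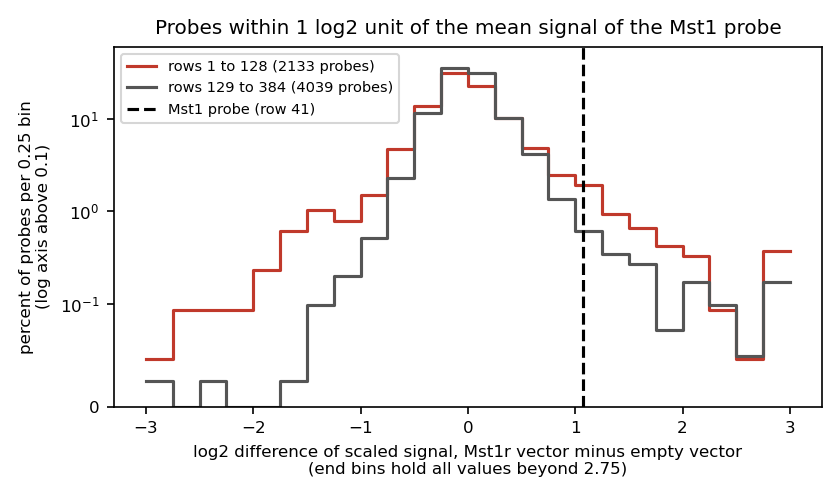
Distribution of the log2 difference between the Mst1r and empty vector arrays for detected probes of about the signal of Mst1, as the percent of probes in each bin of 0.25 (log axis above 0.1), for 2133 probes in the upper rows (red) and 4039 in the lower rows (grey). The dashed line marks Mst1 at 1.08, where the red line lies above the grey one, and the SD of the differences was 0.57 in the upper rows and 0.37 in the lower rows.

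The genes whose pair of differences from empty vector lay nearest to that of Mst1 were Hoxb4, Tnf and Ddit4l. Hoxb4, a homeobox transcription factor, differed by 1.04 with Mst1r vector and 0.34 with Slpi vector. Tnf, the cytokine tumor necrosis factor, differed by 1.04 and 0.25, and Ddit4l, an inhibitor of mTOR signaling, by 1.02 and 0.24. Hoxb4 (row 191) and Ddit4l (row 190) had low signals, with 30.5, 53.4 and 36.5 and with 44.2, 76.4 and 49.5. Tnf gave 178, 312 and 200 from a probe in the upper rows (row 77). The distances of the 3 genes from Mst1 were 0.06, 0.06 and 0.08 on the log2 scale, which is less than the spot error. Of 12457 genes detected on all 3 arrays, 66 lay within 0.27, the spot error of Mst1. This likeness rests on 2 differences that share the empty vector array.

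Among the activating proteases, hepsin was detected by both of its probes. Its brighter probe gave 1571, 985 and 1502 (row 372) and its other probe 91.0, 63.9 and 85.9 (row 165), both with the accession NM_008281. The Mst1r vector array was the lowest on both probes. The differences from empty vector were -0.44 ± 0.13 and -0.28 ± 0.38 with Mst1r vector and 0.01 ± 0.12 and -0.00 ± 0.27 with Slpi vector. Only the first of these was beyond 2 spot SDs. Hgfac (NM_019447, row 296) gave 34.9, 28.2 and 35.7, which is close to the lowest detected signals and below the minimum of 50. It differed by -0.08 ± 0.54 with Mst1r vector and by 0.11 ± 0.46 with Slpi vector. St14, which encodes matriptase, was not detected. Its probes (both NM_011176) gave 4.09, 8.10 and 9.65 (row 14) and 4.49, 4.36 and 3.89 (row 137), and no fold is given where both sides are at background.

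The 2 inhibitors differed in detection. Spint2 (HAI-2) was detected by probes for 2 transcripts. The probe for NM_011464 gave 1384, 895 and 1331 (row 371), and the probe for NM_001082548 gave 1137, 958 and 1033 (row 278). With Mst1r vector the first differed from empty vector by -0.40 ± 0.13 (log2), whereas the second differed by -0.02 ± 0.13. The probes disagreed by -0.38 with a spot SD of 0.19, so the lower signal with Mst1r vector was seen for 1 transcript probe and not for the other. With Slpi vector the differences were 0.02 ± 0.12 and -0.06 ± 0.12. Spint1 (HAI-1, NM_016907) was not detected, with signals of 8.44, 5.01 and 10.1 (row 227) and 4.41, 4.45 and 4.09 (row 180). Of the membrane proteases and Kunitz inhibitors, Hpn and Spint2 were detected, and St14 and Spint1 were not.

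**Figure D4:**
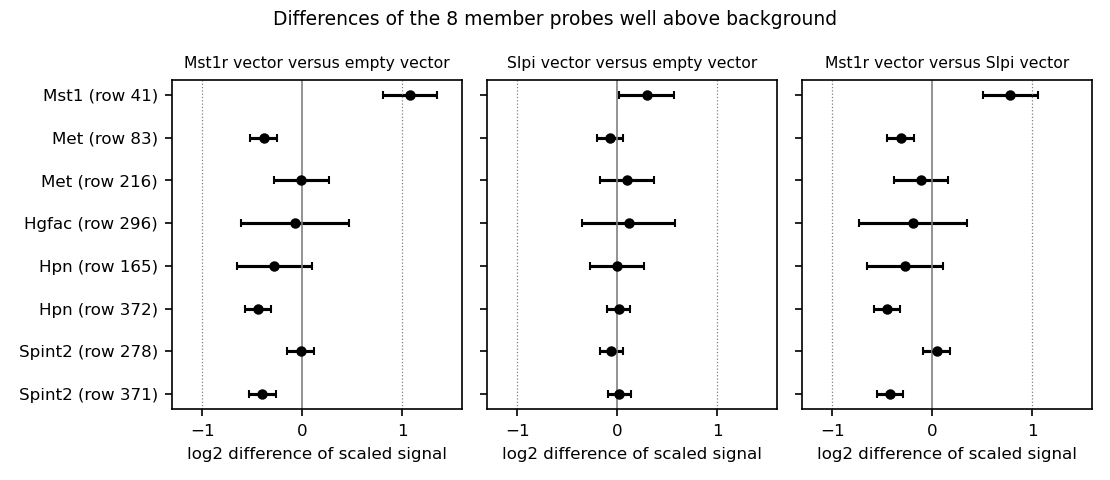
Log2 difference of the scaled signal for the 8 detected member probes in the 3 comparisons, with bars of 1 SD expected from repeated spots and dotted lines at 2-fold. With Mst1r vector Mst1 lies at 1.08 and the other 7 probes between -0.44 and -0.01, whereas with Slpi vector all 8 lie between -0.07 and 0.29.

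Over the 8 detected probes, the Mst1r vector array was higher than empty vector for 1 and lower for 7, with a median difference of -0.18 (log2), and 4 probes were beyond 2 spot SDs. This split depends on the scaling, since 5 of the 8 were lower after median scaling, scaling to detected probes or normexp, and 6 after quantile normalization. The median over all 11611 genes with a mean signal over 50 was -0.05, with the 5th and 95th percentiles at -0.44 and 0.46. Of these genes 6.48% were lower than the brighter Met probe, 4.89% lower than that of Hpn and 5.99% lower than that of Spint2, and 98.2% were lower than Mst1. These 3 lower probes lay at -0.39, -0.44 and -0.40, which is less than 2-fold.

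Between Slpi and empty vector, 0 of the 9 members reached 2-fold, where 0.965% of all genes were higher and 1.09% lower. The 8 detected probes ranged from -0.07 to 0.29 with a median of 0.02, and 0 were beyond 2 spot SDs. They were split into 5 higher and 3 lower, and all 8 were higher after median scaling and 7 lower after spike-in scaling. The median over all genes with a mean signal over 50 was 0.01, and their 5th and 95th percentiles were -0.24 and 0.23. Between the Mst1r and Slpi vectors, 0 of the 9 members reached 2-fold, where 1.63% of all genes were higher with Mst1r vector and 0.991% lower. The median over the 8 probes was -0.23, and 2 were higher and 6 lower, with 5 lower after spike-in scaling and 4 after normexp. The comparison repeats the lower values of the Mst1r vector array, with -0.31 ± 0.13 for the brighter Met probe, -0.46 ± 0.13 for that of Hpn and -0.42 ± 0.13 for that of Spint2. The 3 comparisons share arrays and are not independent of each other.

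Downstream of the receptors, all 43 listed partners and adaptors were detected on all 3 arrays, beside 54.4% of all genes. These included the MET partners Cd44, Plxnb1 and Plxnb2, the adaptors Grb2, Gab1, Shc1 and Crk, and the kinases of the RAS-ERK and PI3K-AKT pathways. None of the 43 reached 2-fold in any comparison. Of all genes, only 0.965% to 1.72% did so in a given direction of a comparison, with a signal over 50. A count of 0 among 43 is therefore near that share. Akt1, a kinase that acts below PI3K, gave 17521, 14109 and 19147. Itgb1, an integrin subunit, gave 14160, 10525 and 12055, and Plxnb2, a semaphorin receptor, gave 13401, 9462 and 11455. Their differences with Mst1r vector were -0.08 ± 0.11, -0.20 ± 0.13 and -0.27 ± 0.13. With Mst1r vector 30 of the 43 were lower and 13 higher than with empty vector, with a median of -0.10 beside -0.05 for all genes, and 39 were lower after spike-in scaling and 41 without scaling. With Slpi vector 21 were lower and 22 higher, with a median of 0.01, but 40 were lower after scaling to the spike-in controls and 8 after median scaling.

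Of the 30 other proteases and inhibitors that take part in activating growth factors, 14 were detected on all 3 arrays, beside 54.4% of all genes. The named examples are Plaur, the receptor of urokinase (7149, 6093 and 6881), and Furin, a proprotein convertase (2950, 3200 and 3135). With Mst1r vector Furin was higher by 0.35 ± 0.12, and Plaur differed by -0.00 ± 0.13. The plasma proteases thrombin (F2), factor X (F10), factor XII (F12) and plasminogen (Plg), and urokinase (Plau), were at background on all 3 arrays, with signals from 3.33 to 5.35. Other plasma proteases were detected on all 3 arrays at low signals, namely factor XI (F11, with 48.5, 53.7 and 60.4) and plasma kallikrein (Klkb1, with 24.7, 27.5 and 19.4). Over the 13 members of this list with a mean signal over 50, the median difference was -0.13 with Mst1r vector and 0.12 with Slpi vector. Scaling moved the second of these, which had a median of -0.12 (10 of 13 lower) after spike-in scaling and 0.29 (13 of 13 higher) after median scaling.

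In this list Tmprss4, a membrane serine protease, was the only gene to reach 2-fold. Its signals were 28.0, 4.02 and 127.6, from a probe in row 11 that was not detected on every array. It was counted in both comparisons with the Slpi vector array, which was the brightest of the 3. Of all genes, 0.965% were higher with Slpi vector than with empty vector by this limit. Between the Mst1r and Slpi vectors, 0.991% were lower with Mst1r vector. The part of stray signal in the Tmprss4 value was not tested. With the mean over its probes, it was not counted.

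Of 30 other receptor tyrosine kinases, 18 were detected on all 3 arrays, beside 54.4% of all genes. Axl gave 34804, 28826 and 33338, Epha2 gave 7645, 7582 and 7758, and Tyro3 gave 3742, 2656 and 3245. Axl and Tyro3 are receptors of the ligand Gas6, and Epha2 binds ephrins. Egfr, which can act together with MET, gave 454, 303 and 341, whereas Erbb3 was at background (6.80, 4.31 and 3.88). Over the 16 members with a mean signal over 50, the median difference was -0.00 with Mst1r vector and 0.02 with Slpi vector. Flt1, a receptor of vascular endothelial growth factors, was the only one to reach 2-fold. Its signals of 31.1, 52.5 and 24.5 (row 13) made it higher with Mst1r vector than with Slpi vector, and its value lay close to the signal minimum. Of all genes, 1.63% were higher by this limit in that comparison.

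**Figure D5:**
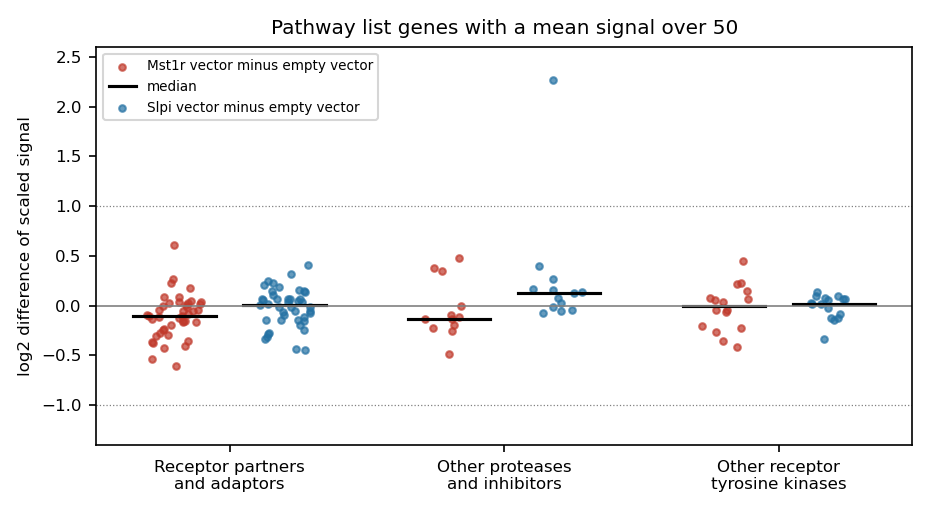
Log2 difference from empty vector of list genes with a mean signal over 50, for the Mst1r vector (red) and Slpi vector (blue), with 43 receptor partners and adaptors, 13 other proteases and inhibitors and 16 other receptor tyrosine kinases. Black lines are medians, which lie between -0.13 and 0.12, and the point above 2 is Tmprss4 with Slpi vector.

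The identity of the cells was set against marker lists, to be read beside the 54.4% of all genes detected on all 3 arrays. Of 14 hepatocyte lineage genes, 7 were detected on all 3 arrays, among them the keratins Krt18 and Krt8, transferrin (Trf), albumin (Alb, signals 5083, 6449 and 4966) and alpha-fetoprotein (Afp). The hepatocyte factor Hnf4a and the apolipoprotein gene Apob were at background. Transcripts of genes known from other liver cells were also present. Of 9 stellate cell and fibroblast genes, 6 were detected, with Dcn at 41199, 27530.3 and 40480.3, and Col1a1 and Acta2 also bright, although Hgf, a product of such cells, and Lrat were at background. Des was counted as lower with both vectors (227, 37.9 and 58.2, row 55), and Reln as higher with Mst1r vector than with either other vector (7.80, 66.9 and 3.90, row 106). Of all genes, 1.19% were lower with Mst1r vector and 1.09% with Slpi vector than with empty vector. With Mst1r vector 1.72% were higher than with empty vector and 1.63% higher than with Slpi vector. Both probes lie in the upper rows, and the Reln probe was not detected on every array. The part of stray signal in these values was not tested. Unscaled, the summed signal of this list was 54451, 39342 and 52611. After scaling, its 6 genes with a mean signal over 50 had a median difference of -0.05 with Mst1r vector, with 3 higher and 3 lower. Of 8 macrophage genes, Cd68 and Csf1r were detected, and Adgre1, Ptprc and Clec4f were at background. Of 6 endothelial genes, 3 were detected, all with a mean signal under 50, and Kdr, Cdh5 and Tek were at background. Of 5 cholangiocyte genes, Krt7, Krt19 and Sox9 were detected and Epcam was not. Krt7 made up most of the unscaled summed signal of these 5 genes and was lowest with Mst1r vector (13189, 7963 and 13233), as were the brighter probes of Met, Hpn and Spint2. Sox9 was highest with Mst1r vector (575, 634 and 477). Unscaled, the summed signal of the hepatocyte genes was lowest on the Mst1r vector array (298465, 251882 and 281719). The 75th percentile over all probes of the array was lowest there too (268, 229 and 254). After scaling, the 7 hepatocyte genes with a mean signal over 50 had a median difference of -0.00 with Mst1r vector, with 3 higher and 4 lower. The part of the marker genes in the member values was not tested.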

How the data were processed

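RNA of 3 transfected Hepa1c1c7 cultures (empty vector, Mst1r vector and Slpi vector, grouped by the sample labels) was labelled with Cy3 from 100 ng each and hybridized to 3 single-colour Agilent SurePrint G3 Mouse arrays. The deposited values are spot intensities on a linear scale, which the authors extracted with Agilent Feature Extraction (version 12.0.3.1 in the submitters' processing notes; the methods name another version), with background subtracted, spatial trends corrected and no scaling between arrays. The design of the array refers to the mm9 build. A deposited table of the series holds the intensity of each probe, and 99.95% of its values lay within 0.01 (log2) of the mean over the spots of the probe.

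From these intensities, the log2 processed signals of all spots of a probe not marked as outliers were averaged, and the 75th percentile over the 56605 non-control probes of the array was subtracted, as the methods do. It was 268, 229 and 254 with empty, Mst1r and Slpi vector. No spot was saturated (0 on each array). Probes were named through their RefSeq accession, without version, and a RefSeq gene table (GRCm38.p6) used for names only, which matched 32994 probes. Where a gene had several probes, the one brightest on average stood for its gene in comparisons over all genes. A gene counted as different at 2-fold or more with a processed signal over 50, the minimum of the methods, on the brighter array. The error of a difference is the SD between spots of probes printed at least 10 times, control probes and outlier spots included, taken at the same signal level. It covers spot error only, and precision is limited by the number of arrays. The 3 arrays shared 1 slide and 1 scan, and their place on the slide and the group cannot be told apart. With 1 array per group no p-value was computed.

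The 9 members, the lists, the division into upper rows (1 to 128) and lower rows (129 to 384) and the alternatives were chosen with earlier results of these data known. The genes named are all 9 members, list genes at least 2-fold apart, 3 list members of high signal per list, the 3 genes nearest to Mst1, and a few list genes chosen after their values were seen. Some list genes are not reported here. The alternatives were other scalings (detected probes, median, 7 spike-in probes, none, quantile), normexp background correction with an offset of 50, no outlier flags, the mean over all probes of a gene, the lower rows alone, the deposited table, and other limits for detection and for a call. The mean spot signal was not in the columns used here, so normexp took the median spot and background intensities. Python 3.11.15 with numpy 2.4.6, pandas 2.3.3 and matplotlib 3.10.9, and R 4.3.3 with limma 3.58.1, were used, and the computation was tested on simulated data. RefSeq promoter windows of GRCm38.p6 were used for sequence only, and gene coordinates of another build than that of the array were not used.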

Additional observations from a re-analysis of the deposited data

How the results depend on the processing

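The number of members at least 2-fold apart between Mst1r and empty vector, 1 (Mst1) in the report, was 0 with spike-in scaling, with no scaling, with normexp background correction and with the lower rows alone, where Mst1 has no probe. It was 2 with no signal minimum, which adds St14 with signals at background. The log2 difference of Mst1 ranged from 0.65 to 1.11 over 9 alternatives. Between Slpi and empty vector the number of members, 0, became 1 with no signal minimum (St14 again). Of the pathway list genes, 0 were at least 2-fold apart between Mst1r and empty vector, against 1 with scaling to detected probes, 1 with median scaling and 3 with no signal minimum. Between Slpi and empty vector there was 1, against 0 with the mean over all probes, 0 with the lower rows alone and 4 with no signal minimum. Between the Mst1r and Slpi vectors there were 2, against 1 with normexp, 1 with the mean over all probes, 1 with detection on both arrays in place of the signal minimum, 0 with the lower rows alone and 6 with no signal minimum.

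The number of members detected on all 3 arrays, 5, was 7 with the less strict flag for a positive and significant signal, which adds Spint1 by 1 probe and St14 by different probes on different arrays, 4 with a signal over 50 on all arrays, which leaves out Hgfac, and 4 with the lower rows alone. The only called difference among the 5 detected members, that of Mst1 between Mst1r and empty vector, did not change sign. The differences of Hpn (-0.67 to -0.36), Met (-0.62 to -0.01) and Spint2 (-0.63 to -0.21) between Mst1r and empty vector were below 0 under all 10 alternatives tried. Most of these alternatives took the brighter probe alone, and those with no outlier flags and with the deposited table repeated the values of the report. By single probes the sign was less stable. Of the 8 detected probes, 3 were higher with Mst1r vector after median scaling, scaling to detected probes or normexp. The differences between Slpi and empty vector changed sign for Hgfac, Hpn, Met and Spint2 under 1 to 3 of the 10 alternatives. The median over all genes moved from -0.05 to -0.28 with no scaling and to -0.16 with spike-in scaling between Mst1r and empty vector, and between Slpi and empty vector from 0.01 to 0.17 when arrays were scaled to their median and to -0.23 when scaled to the spike-ins. With normexp 226 genes were higher and 104 lower with Mst1r vector, against 395 and 272. The share of higher genes among those called was 59.2%, 68.5% with normexp, 49.5% with no scaling and 80.7% with the lower rows alone. No paired analysis was possible because each group is 1 array. Transcripts of Mst1r, Hgf, St14 and Spint1 below the background of the probes cannot be seen, and Hgfac lay near that limit.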
